A study of Rattus norvegicus with 18 samples.

Results

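Transcript levels in adrenal glands of SHRSP rats, the stroke-prone strain bred from the spontaneously hypertensive rat (SHR), were compared with those of WKY rats, the normotensive control strain, at 3 weeks of age. The comparison uses the 6 arrays labelled SHRSP or WKY at that age, 3 of each, out of 18 in the series. The other 12 arrays hold SHR at 3 weeks and all 3 strains at 6 weeks, with 3 arrays a group. They serve here as reference points and in the estimate of the spread. The glands were untreated in every group and were taken whole, so cortex and medulla were measured together. The labels call the samples of a group biological replicates without saying whether each came from 1 animal or several, and p-values therefore measure only the spread between these samples.

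The adrenal gland joins 2 endocrine organs. Its cortex makes aldosterone in the outer zona glomerulosa and glucocorticoids in the zona fasciculata, from cholesterol, under the control of angiotensin II, potassium and corticotropin (ACTH). ACTH acts through the melanocortin 2 receptor and cyclic AMP. Its medulla consists of chromaffin cells, which make, store and release adrenaline and noradrenaline on command of sympathetic nerves. Aldosterone and catecholamines both raise blood pressure, which is why the gland is studied in hypertensive strains.

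Levels are given as log2 of the processed array signal relative to the 75th percentile of its array, so that 0 is the 75th percentile and a difference of 1 is a 2-fold difference. Between 77.9% and 83.9% of the spots of the 6 arrays lay well above background, and arrays of the same group correlated at 0.994 or more. The 10 adrenal cortex markers were all measured, as were 9 of the 10 chromaffin cell markers, and none of them was at background in both groups. The 6 arrays lay on 4 slides, of which slides 1 and 4 held an array of each strain. A gene was called different at a Benjamini-Hochberg adjusted p under 0.05 over all 20797 genes tested in limma. The fit took the spread within all 6 groups of the 18 arrays, so SEs and p-values do not rest on the 6 arrays alone. Genes were grouped by 44 lists drawn up for the gland, and the genes of each list named below are mostly the 5 with the smallest adjusted p. Counts of called members in a list stand beside shares of 14.8% higher and 11.4% lower over all genes.

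The strain labels of the hypertensive arrays did not hold together across the ages. Arrays labelled SHRSP and SHR share no array between 3 and 6 weeks, yet the genes that separated them most ran in opposite directions at the 2 ages. Of 39 genes that differed at least 4-fold between the labels at 3 weeks, 29 were also called at 6 weeks, and 24 of these went the opposite way. Of 14 genes that differed at least 8-fold, 11 were also called at 6 weeks and 10 went the opposite way. Over all 1650 genes called at 3 weeks, 733 were also called at 6 weeks, where 14.9% of all genes were, and 345 of these were opposite.

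**Figure D1:**
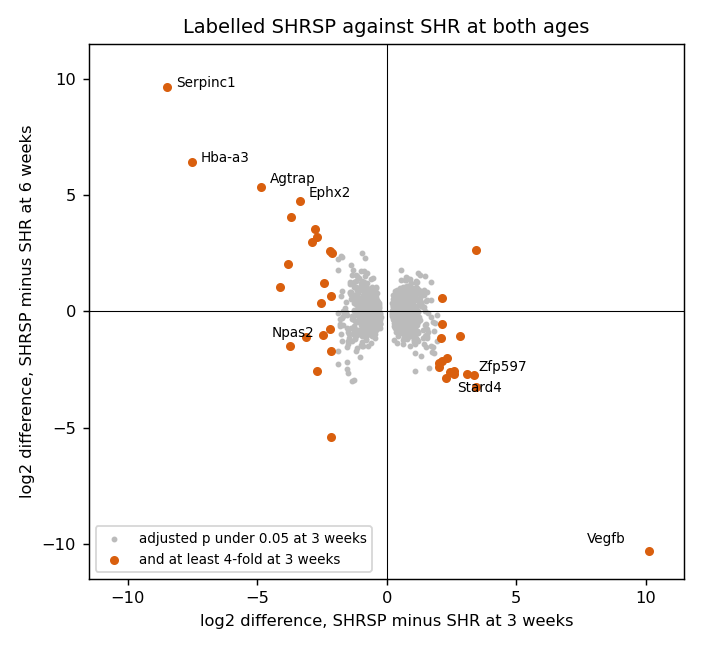
Log2 difference between arrays labelled SHRSP and SHR at 6 weeks (vertical) against 3 weeks (horizontal), 1 point per gene called at 3 weeks. The 39 genes at least 4-fold apart at 3 weeks (orange) lie mainly in the upper left and lower right, where the direction is opposite.

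Antithrombin (Serpinc1), the main inhibitor of thrombin, showed this in single genes. Its level was -7.07, -3.63 and -8.35 on the arrays labelled SHRSP at 3 weeks, against 2.08, 2.25 and 1.88 for WKY and 1.93, 2.88 and 1.55 for SHR. At 6 weeks the arrays labelled SHRSP lay 0.57 above WKY and those labelled SHR differed from it by -9.06, and the low group thus carried the other label. Vegfb, a vascular growth factor named after its values were seen, did the reverse, with differences from WKY of -9.90 for SHR at 3 weeks and -10.15 for SHRSP at 6 weeks, and of 0.23 ± 0.18 (SE) for SHRSP at 3 weeks, which was not called. Over 38 of the 39 genes, arrays labelled SHRSP at 3 weeks correlated at 0.88 to 0.92 with those labelled SHR at 6 weeks and at 0.33 to 0.50 with those labelled SHRSP at 6 weeks, where the genes were chosen for the contrast at 3 weeks. WKY arrays of the 2 ages correlated at 0.92 to 0.97 over the same genes. Which age carries the true strain names cannot be told from these data. The samples are therefore called by their labels throughout, and values at 6 weeks are given for both hypertensive labels.

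**Figure D2:**
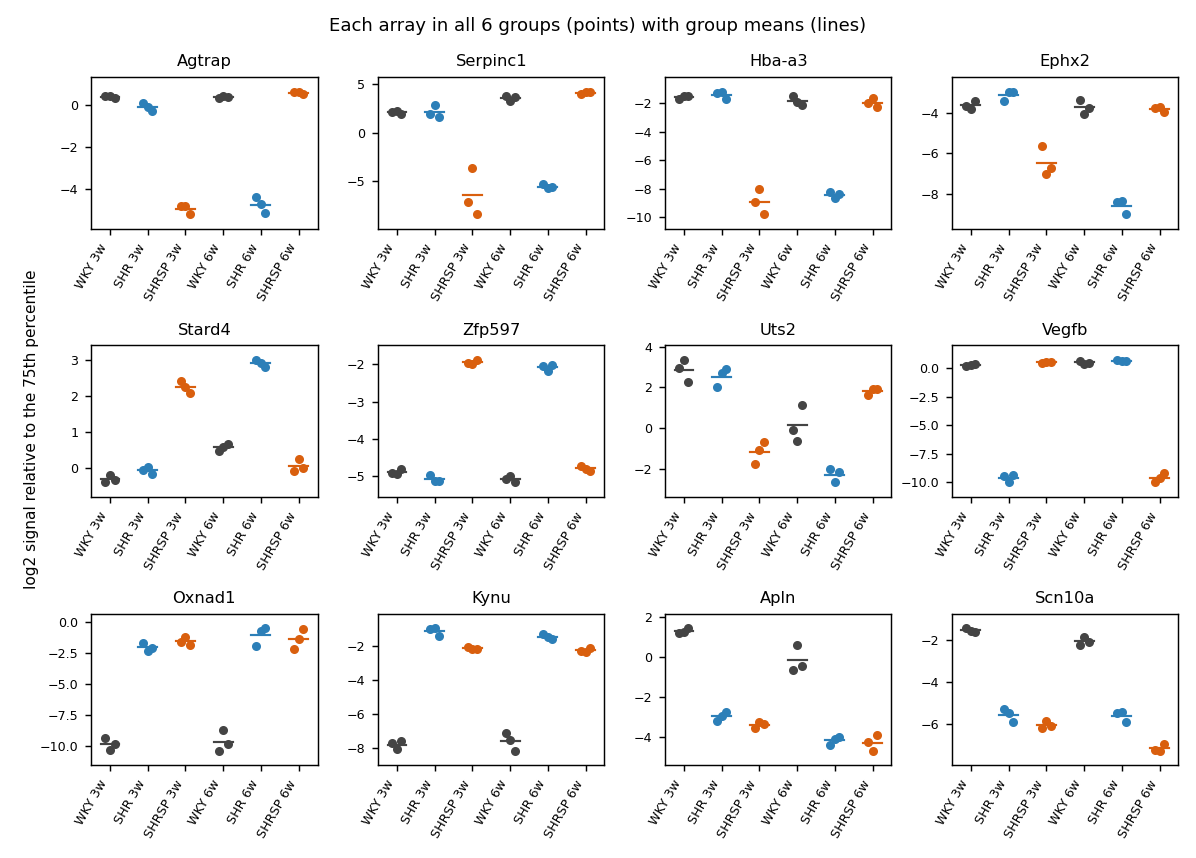
Log2 level of 12 genes on every array (points) with group means (lines), in the 6 groups of strain label and age. Agtrap, Serpinc1, Hba-a3, Ephx2, Stard4, Zfp597 and Vegfb separate 1 hypertensive label at 3 weeks and the other label at 6 weeks, while Oxnad1, Kynu, Apln and Scn10a separate both hypertensive labels from WKY at both ages.

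Of 20797 genes tested, 5453 (26.2%) differed between the SHRSP-labelled and the WKY arrays at 3 weeks. The 3073 higher genes made up 14.8% of all genes tested and the 2380 lower genes 11.4%. Most differences were small, with a median size of 0.59 on the log2 scale among called genes, and 1117 genes (5.37%) were called and at least 2-fold apart. Differences beyond 8-fold were called for 30 genes that were higher and 20 that were lower. The median difference over all genes was 0.09 in favour of SHRSP, and the 3 arrays of one group lay wholly above or below those of the other for 10051 genes (48.3%). The split of called genes between higher and lower depended in part on the scaling, since 2587 were higher and 2664 lower after quantile normalization.

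**Figure D3:**
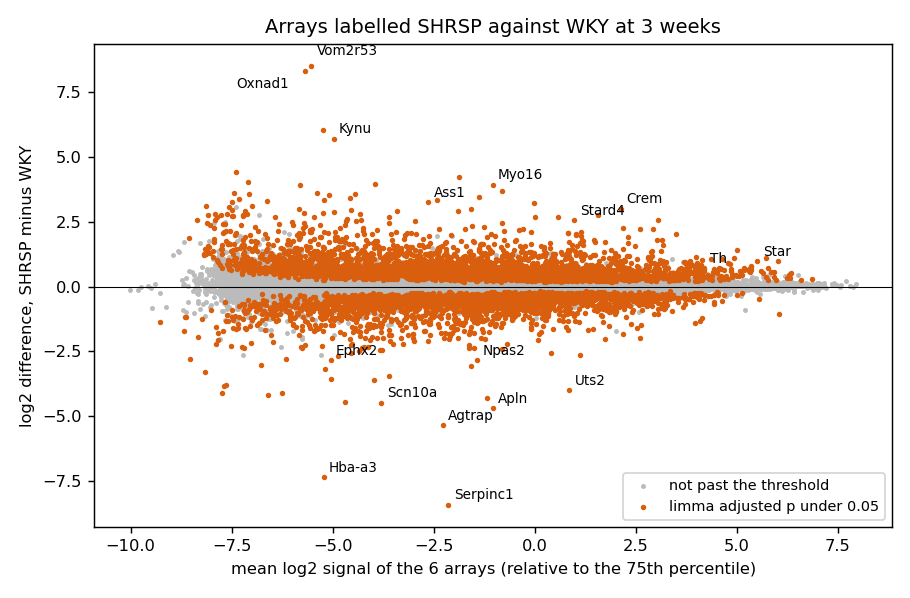
Log2 difference between SHRSP-labelled and WKY arrays at 3 weeks against the mean level of the 6 arrays, 1 point per gene, with genes called by limma in orange. Called genes lie on both sides of 0 at every level, with Oxnad1 and Vom2r53 at the top and Serpinc1 and Hba-a3 at the bottom.

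The largest rises among named genes were of genes that were not well above background on any WKY array. For these the fold is a bound, set against the background of the WKY arrays. Oxnad1, an oxidoreductase-like protein, stood at -1.57, -1.22 and -1.82 on the SHRSP-labelled arrays and at -9.35, -10.32 and -9.83 on the WKY arrays, at least 68.9-fold higher (adjusted p = 6.3e-08). Kynu, kynureninase of the tryptophan breakdown pathway, stood at -2.07, -2.16 and -2.15 against -7.75, -8.10 and -7.64, at least 45.1-fold higher (adjusted p = 9.4e-10). The groups did not overlap in either gene. The SHR arrays were also far above WKY, by 7.81 for Oxnad1 and 6.72 for Kynu. The vomeronasal receptor gene Vom2r53 was at least 82.6-fold higher, with a wide spread among the SHRSP-labelled arrays from -2.57 to 0.37. Smaller bounds were found for Slco1c1, a thyroid hormone transporter (at least 6.29-fold), Acox2, a peroxisomal oxidase of branched fatty acids and bile acid precursors (5.90-fold), Gucy2f, a retinal guanylate cyclase (4.62-fold), Slc1a4, a neutral amino acid carrier (4.08-fold), and Nxph1, a neurexin ligand (3.81-fold). In all, 70 genes were called while well above background on the 3 SHRSP-labelled arrays and on no WKY array, and 25 the other way round. The call of Slco1c1 was lost without SHRSP replicate 3, and that of Acox2 with another background correction.

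Among genes measured in both strains, the unconventional myosin Myo16 was far above WKY. Its level was 0.47, 0.83 and 1.46 against -2.67, -3.51 and -2.85, a 15.2-fold difference with no overlap (adjusted p = 1.0e-04). Tmem163, a zinc-binding vesicle protein, was higher by 3.61 ± 0.29 (SE, 3 arrays against 3), Gpr35, a G protein-coupled receptor, by 3.51 ± 0.23, and Lrat, which esterifies retinol, by 3.45 ± 0.40. Ass1, argininosuccinate synthase of the urea and arginine cycle, was higher by 3.24 ± 0.38, the synaptic organiser Cbln2 by 3.23 ± 0.45 and the Wnt antagonist Sfrp4 by 3.00 ± 0.40. The oestrogen sulfotransferase Sult1e1 and the seminal vesicle protein Svs5 were higher by 3.33 ± 0.62 and 3.56 ± 0.51, and both varied among the SHRSP-labelled arrays by more than 2 on the log2 scale.

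The deepest falls among genes measured on at least some arrays of both groups were of Serpinc1 and of Agtrap, the protein that binds and internalises the angiotensin II type 1 receptor. Agtrap stood at -4.83, -4.81 and -5.21 against 0.41, 0.44 and 0.32, a 40.5-fold difference (adjusted p = 6.6e-11). The SHR arrays, at 0.11, -0.10 and -0.28, lay 0.48 below WKY (adjusted p = 0.049). Apln, the vasodilator peptide apelin, stood at -3.55, -3.25 and -3.37 against 1.23, 1.26 and 1.45, a 26.0-fold difference (adjusted p = 6.3e-08). Scn10a, a voltage-gated sodium channel of sensory neurons, stood at -6.18, -5.84 and -6.08 against -1.46, -1.59 and -1.63, a 22.2-fold difference (adjusted p = 9.4e-10). Apln and Scn10a were low on the SHR arrays too, by 4.27 and 3.99 against WKY, and their differences between SHRSP and SHR were not called.

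Other genes far below WKY were Prss35, a serine protease-like protein (-4.29 ± 0.34), the vasoactive peptide urotensin 2 (Uts2, -4.0 ± 0.41), Gfra1, the receptor subunit for the nerve growth factor GDNF (-3.59 ± 0.29), and Igsf9, an adhesion protein (-3.19 ± 0.38). Afp (alpha-fetoprotein), the steroid 5-beta-reductase Akr1d1 and Hsd17b13, a lipid droplet enzyme, are abundant in liver and were lower by 4.45 ± 0.87, 4.18 ± 0.85 and 3.55 ± 0.77. Serpinc1 was well above background on 2 of the 3 SHRSP-labelled arrays and Akr1d1 on 1. Liver markers varied between arrays of 1 group. Albumin (Alb) stood at -2.32, 0.83 and -1.77 on the SHRSP-labelled arrays and at -3.49, -3.43 and -2.16 on the WKY arrays, and the 12 measured liver markers summed to between 17 and 25.7 times the 75th percentile in SHRSP and 15.3 and 19.6 in WKY. Of these markers 2 were called, Serpinc1 and Afp, both lower, and the part of liver transcripts in these differences was not tested. Genes on no SHRSP-labelled array above background included the haemoglobin alpha gene Hba-a3 (at least 74.2-fold lower), Saxol1, a microtubule-stabilising protein (11.8-fold), Ryr1, a calcium release channel that the files list as Ryr1l (4.22-fold), Gsta3l1, a glutathione transferase-like gene (4.01-fold), and the receptor kinase Ros1 (3.36-fold). The same held for the olfactory receptor gene Or13m2 (3.20-fold) and the keratin Krt28 (2.50-fold). The fall of Hba-a3 was not shared by the haemoglobin beta genes Hbb (-0.08 ± 0.11) and Hbb-b1 (-0.17 ± 0.16), which were not called.

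Most genes are read by 1 probe of 60 bases. Agtrap, Serpinc1, Hba-a3, Oxnad1, Kynu, Apln, Scn10a and Vegfb are among them, so their differences could not be compared with those of another probe. Where a called gene had further measured probes, 824 of 918 (89.8%) gave the same sign, 459 were called the same way and 7 the opposite way. Star and Crem were called on each of their probes. Adora1, Bmal1, Cacna1c, Fgfr2, Fgfr3 and Gatm, described below, each had a dimmer measured probe with the same sign that was not called. Npas2 and Lypd6b, both far below WKY, were not, and the first 30 bases of each of their probes are printed because the result rests on 1 of the 2. Npas2, a clock transcription factor, stood at -2.83, -2.80 and -2.92 against 0.13, -0.13 and -0.04 on its brighter probe (adjusted p = 9.9e-09), and its other probe differed by -0.11 ± 0.21. Lypd6b, a modulator of nicotinic receptors, was lower by 3.05 ± 0.27 on its brighter probe and differed by -0.26 ± 0.22 on the other. The probes of Npas2 lie on chromosome 9 of rn4, at chr9:38433884-38433943 and chr9:38417496-38417555, and those of Lypd6b on chromosome 3, at chr3:30868992-30869051 and chr3:30867618-30867677, all on the plus strand. The part of the transcript under a probe is not given in the sources used here.
Npas2, brighter probe: gcaaagcacaatctcacaatgattccgaat
Npas2, other probe: tccaaaaccaataagaagctcccagttgct
Lypd6b, brighter probe: gtttccaggaaccatgggtgatacatgctg
Lypd6b, other probe: aatgatctgcaatgtagagttgcccaccaa

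Steroid synthesis genes held 6 higher and 3 lower of 27 measured, with a median difference of 0.14, beside 0.09 for all genes. The clearest change was in Star, the protein that carries cholesterol into mitochondria and starts steroid synthesis. Its level was 5.99, 5.88 and 6.12 against 4.91, 5.12 and 5.03, with no overlap, 0.98 ± 0.08 higher or 1.97-fold (adjusted p = 2.3e-06). SHR arrays lay between, at 5.58, 5.56 and 5.61. Cyp11b2, aldosterone synthase, stood at 4.92, 4.66 and 4.77 against 4.33, 4.07 and 4.34, 0.53 ± 0.13 higher (adjusted p = 0.0062). Cyp11b1, which makes corticosterone, was 0.30 ± 0.08 higher (adjusted p = 0.016), a call lost without SHRSP replicate 3 or WKY replicate 3 (adjusted p = 0.060 and 0.062). Cyp11a1, the side chain cleavage enzyme, differed by 0.07 ± 0.10 and Cyp21a1, 21-hydroxylase, by 0.10 ± 0.08, neither of them called. Por, the reductase that feeds electrons to these enzymes, and the steroid sulfatase Sts were higher by 0.77 and 0.67, and Akr1c14, a hydroxysteroid dehydrogenase that inactivates steroids, was lower by 1.30. Without 1 of the 6 arrays, 4 to 6 of these genes were higher and 1 or 2 lower.

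Genes of ACTH and cyclic AMP signalling held 10 higher and 2 lower of 32 measured, where 14.8% of all genes were higher and 11.4% lower, with a median of 0.22. Mc2r, the ACTH receptor, stood at 0.77, 0.80 and 0.93 against 0.31, 0.23 and 0.19, 0.59 ± 0.14 higher (adjusted p = 0.0054). The largest member was Crem, a transcription factor gene that cyclic AMP induces and that also encodes repressors of the pathway. Crem stood at 3.33, 3.52 and 4.09 against 0.41, 0.35 and 1.15, an 8.04-fold difference (adjusted p = 2.6e-04), and each of its 5 probes was called, with differences from 2.21 to 3.18. Pde10a, a phosphodiesterase that breaks down cyclic nucleotides, stood at 1.68, 1.88 and 2.17 against -0.71, -0.87 and -0.71, a 6.37-fold difference. Pde4d, a phosphodiesterase specific for cyclic AMP, was higher by 2.62 ± 0.36. The adenylyl cyclase Adcy9, which makes cyclic AMP, and Prkar1a, the regulatory subunit that holds protein kinase A inactive, were higher by 0.87 and 0.67. SHR arrays shared the level of Crem (3.64 to 3.99) but not that of Adcy9 or Prkar1a, which lay 0.75 and 0.55 lower there than in SHRSP (adjusted p = 0.0029 and 0.0024).

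Transcription factors and signals that form the cortical zones held 8 higher and 5 lower of 41 measured. Nr0b1 (Dax1), a repressor of steroidogenic genes, stood at 1.58, 1.34 and 0.85 against 3.05, 3.06 and 3.18, a 3.58-fold lower level (adjusted p = 2.4e-05), and SHR lay between. Nr0b2, a related repressor, was lower by 0.84 ± 0.15. The steroidogenic factor Nr5a1 itself differed by -0.05 ± 0.19, which was not called and changed sign in some fits. Fgfr2, a growth factor receptor of the cortex, was higher by 1.36 ± 0.20, with SHRSP at 3.86, 3.65 and 3.87 and WKY at 2.44, 2.43 and 2.44. Amhr2, the receptor for anti-Müllerian hormone, was above background on the WKY arrays only (at least 2.47-fold lower), and the homeobox gene Hoxb9 on the SHRSP-labelled arrays only (at least 1.16-fold higher). The zonation signal Wnt4 differed by 0.39 ± 0.16 and was not called. Without 1 array, 4 to 8 of the list were higher and 3 or 4 lower.

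Genes of cholesterol synthesis and supply held 13 higher and 3 lower of 49 measured, with a median of 0.22. Stard4, a cytosolic cholesterol carrier, stood at 2.43, 2.25 and 2.09 against -0.39, -0.18 and -0.33, a 5.88-fold difference (adjusted p = 2.6e-09), and SHR lay with WKY at -0.04, 0.03 and -0.14. At 6 weeks Stard4 lay 2.34 above WKY under the SHR label and 0.52 below under the SHRSP label. Scarb1, the receptor that takes up HDL cholesterol esters, stood at 6.15, 6.29 and 6.36 against 5.29, 5.06 and 5.13, a 2.15-fold difference. Acat2 and Idi1, early enzymes of sterol synthesis, were higher by 1.91 ± 0.20 and 1.60 ± 0.19, and Hsd17b7, a late one, by 1.56 ± 0.18. The other probe of Acat2, which is much dimmer, was not called and differed by -0.44 ± 0.19. Hmgcs1 and Sqle, also of sterol synthesis, were not called, with differences of -0.03 and -0.04, and were named after their values were seen. Plin2, which coats lipid droplets, stood at 3.36, 3.33 and 3.10 against 4.77, 4.66 and 4.64 and was lower by 1.42 ± 0.13 (adjusted p = 3.4e-06).

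Genes that control aldosterone output, with the renin-angiotensin system, held 8 higher and 6 lower of 40 measured. The 2 genes of the angiotensin II type 1 receptor went opposite ways. Agtr1a stood at 0.41, 0.31 and 0.49 against -0.18, -0.31 and -0.24, 0.65 ± 0.10 higher, and Agtr1b at 0.90, 0.82 and 0.70 against 1.43, 1.54 and 1.58, 0.71 ± 0.19 lower (a call lost without SHRSP replicate 3). The L-type calcium channel Cacna1c was higher by 0.75 ± 0.12, and Lnpep, an aminopeptidase that binds angiotensin IV, was lower by 0.92 ± 0.14, as was the calcium-dependent kinase Camk2g by 0.68 ± 0.10. The background potassium channel Kcnk3, which sets the membrane potential of glomerulosa cells, was higher by 0.67 ± 0.16. Kcnj5, Cacna1d and the type 2 receptor Agtr2 were not called, with differences of 0.17, -0.12 and 0.04. Kcnk3 and these 3 were named after their values were seen.

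Targets of the glucocorticoid receptor held 7 higher and 2 lower of 22 measured, although the median was 0.08. Fkbp5, a chaperone that dampens the receptor, stood at 1.75, 1.73 and 1.95 against 0.35, 0.48 and 0.53, 1.35 ± 0.11 higher (adjusted p = 1.0e-06). Zbtb16, a transcription factor gene, was higher by 2.89 ± 0.62, the lipoprotein lipase inhibitor Angptl4 by 1.46 ± 0.29, the kinase Map3k6 by 1.14 ± 0.15 and glutamine synthetase (Glul) by 1.48 ± 0.20. Tsc22d3, a commonly used target, differed by 0.09 ± 0.13 and was not called. It was named after its values were seen.

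Of 9 measured chromaffin cell markers, 7 were higher and 1 lower, with a median of 0.66, and their summed level lay between 135 and 152 times the 75th percentile on the SHRSP-labelled arrays and between 89.5 and 96.7 on the WKY arrays. The 10 cortex markers held 4 higher and none lower, and summed to 934 to 1091 in SHRSP and 812 to 862 in WKY. In whole glands, a larger share of a cell type and more RNA per cell cannot be told apart. Tyrosine hydroxylase (Th), the rate-limiting enzyme of catecholamine synthesis, stood at 4.41, 4.59 and 4.67 against 3.93, 3.82 and 3.79, 1.64-fold higher (adjusted p = 0.0010). Pnmt, which turns noradrenaline into adrenaline, stood at 3.39, 3.19 and 3.41 against 2.63, 2.57 and 2.61, 1.66-fold higher (adjusted p = 5.0e-04), and was the clearest of these genes above SHR, by 0.59 (adjusted p = 0.0072). Dbh, dopamine beta-hydroxylase, was 0.61 ± 0.17 higher (adjusted p = 0.018), but the call was lost in 3 of the 6 fits without 1 array, where adjusted p lay between 0.058 and 0.064. Ddc, the decarboxylase between Th and Dbh, went the other way, at 2.34, 2.29 and 2.33 against 2.92, 3.00 and 2.89, and was 0.61 ± 0.08 lower (adjusted p = 1.2e-04).

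The wider list of catecholamine synthesis, transport and breakdown held 8 higher and 2 lower of 21 measured, with a median of 0.44. Gch1, which makes the cofactor that Th needs, was higher by 1.65 ± 0.27, with values of 0.37, 0.44 and 1.41 against -1.01, -0.81 and -0.91. The granule electron carrier Cyb561 was higher by 0.60 ± 0.09 and Sult1a1, which sulfates catecholamines and phenols, by 1.14 ± 0.21. Granule proteins and neuropeptides held 11 higher and 0 lower of 33 measured, with a median of 0.31. The granins Chgb and Scg2, which fill the secretory granule, were higher by 0.73 ± 0.10 and 0.62 ± 0.09. The neuropeptides Vip and Gal, present in adrenal nerves and some chromaffin cells, rose further. Vip stood at -3.12, -2.92 and -3.07 against -4.68, -4.99 and -4.68, 3.36-fold higher, and Gal at -3.86, -3.59 and -2.84 against -5.06, -5.06 and -4.85, higher by 1.56 ± 0.24. Npff, which encodes neuropeptide FF, was higher by 1.0 ± 0.14.

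Receptors that act on chromaffin cells held 8 higher and 0 lower of 34 measured, with a median of 0.27. Their share of called members, 23.5%, was near the 26.2% of all genes. The adenosine receptor Adora1 was higher by 1.27 ± 0.24, the autoreceptor Adra2a by 1.15 ± 0.25 and Adra1b by 0.74 ± 0.16. Adra2a was near background in WKY and its call was lost with another background correction. The exocytosis machinery held 4 higher and 5 lower of 36, and 1 to 3 higher when 1 array was left out. In this list the vesicle SNARE Vamp2, the release factor Cadps2 and the Rab effector Rph3al were lower by 0.60, 0.59 and 0.94, and the vesicle GTPase Rab3c was higher by 0.63. The call of Rph3al rests on 1 of its 2 probes, and the other differed by -0.11 ± 0.17. Nicotinic, sodium and calcium channels held 4 higher and 4 lower of 33 (24.2% called), with a median of -0.05. Apart from Scn10a, the sodium channel Scn3a was higher by 0.57 ± 0.14. Factors of the sympathoadrenal lineage held 3 higher and 3 lower of 27 (22.2% called). Among them Hand2 (0.92 ± 0.15) and Mycn (0.79 ± 0.17) were higher, and the ligand Gdnf (-1.08 ± 0.28) fell with its receptor Gfra1.

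**Figure D4:**
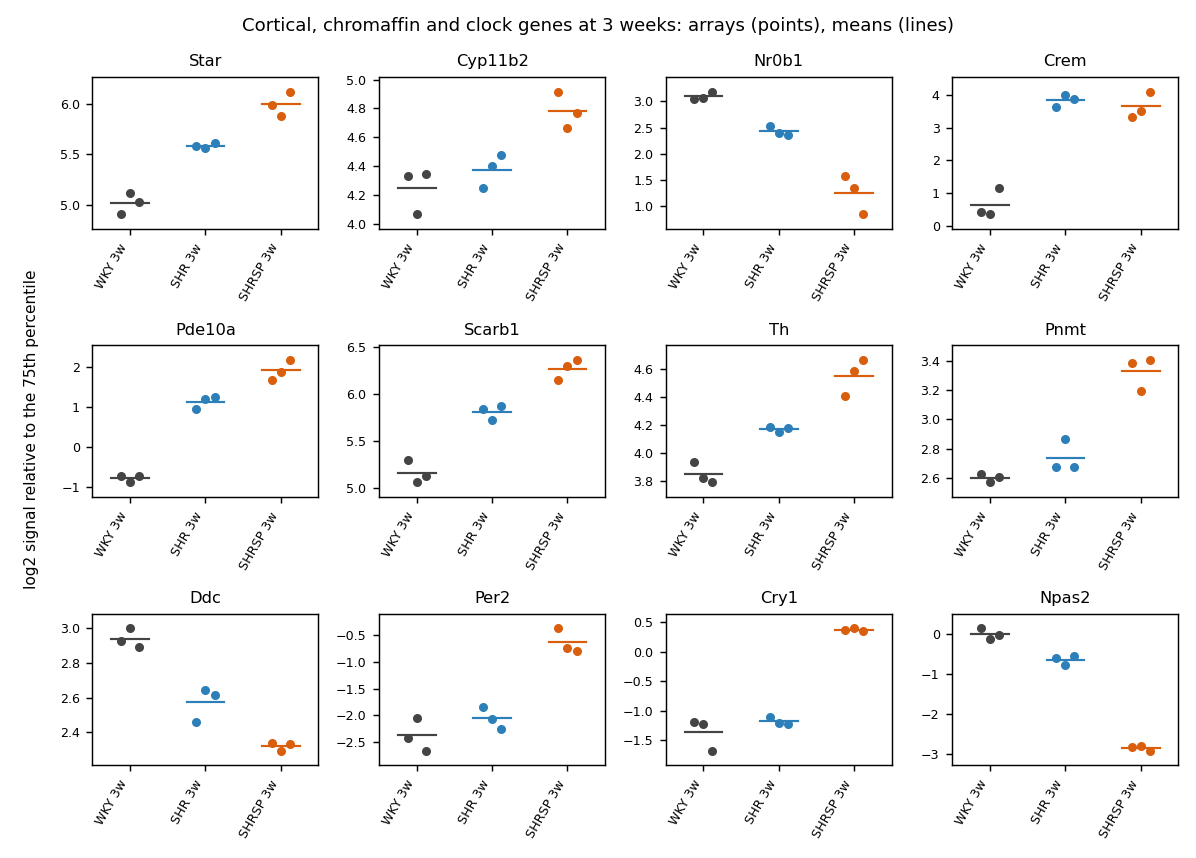
Log2 level of 12 cortical, chromaffin and clock genes on each array at 3 weeks (points) with group means (lines) for WKY, SHR and SHRSP labels. In all 12 genes the SHRSP-labelled points lie wholly above or below the WKY points, and the SHR points lie between them for Star, Nr0b1, Pde10a, Scarb1, Th, Pnmt, Ddc and Npas2. The lack of overlap follows from the choice of called genes, of which 5401 of 5453 did not overlap, beside 48.3% of all genes. Cyp11a1, Cyp21a1, Nr5a1, Clock and Per1, which were not called, are not shown.

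Potassium channels held 14 higher and 4 lower of 65 measured, with a median of 0.25, and their share of called members (27.7%) was near that of all genes (26.2%). Kcng3, a modifying subunit, was higher by 1.56 ± 0.22 and Kcnmb2, a subunit of the calcium-activated channel of chromaffin cells, by 0.63 ± 0.11. Kcnh2, the ERG channel, stood at -2.48, -2.42 and -2.72 against -1.18, -1.09 and -1.46 and was lower by 1.29 ± 0.19, while the SHR arrays differed from WKY by -0.05 and from SHRSP by 1.25 (adjusted p = 0.0013 for the latter). Kcnk2 was higher by 0.63 ± 0.09 on its brightest probe, and its other 2 probes were not called, with differences of -0.11 and -0.49. Vasoactive peptides and nitric oxide genes held 7 higher and 3 lower of 31. Nos1, neuronal nitric oxide synthase, stood at -3.74, -3.39 and -3.06 against -5.60, -6.29 and -5.86, a 5.72-fold difference (adjusted p = 8.3e-06), and Nos3, the endothelial form, was higher by 0.78 ± 0.17. Endothelial markers held 8 higher and 1 lower of 20, with summed levels of 26.6 to 30.7 in SHRSP and 27.0 to 27.8 in WKY. Esm1 and Sox17 led them, at 1.57 ± 0.15 and 1.39 ± 0.22.

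Of 21 measured circadian clock genes, 10 were higher and 2 lower, a share called of 57.1% beside 26.2% of all genes, with a median of 0.53. The clock is a loop in which Bmal1 with Clock or Npas2 drives Per and Cry genes through E-boxes, and Per and Cry proteins shut that drive off. Among the repressors, Cry1 stood at 0.37, 0.40 and 0.35 against -1.20, -1.23 and -1.68, a 3.35-fold difference (adjusted p = 4.3e-06), and Per2 at -0.38, -0.74 and -0.80 against -2.42, -2.04 and -2.66, higher by 1.74 ± 0.24 (adjusted p = 1.3e-04). Among the activators, Bmal1 was lower by 0.59 ± 0.16, Npas2 was lower on 1 of its 2 probes, and Clock differed by -0.01 ± 0.14. Bmal1 was listed under its older symbol Arntl, so it is neither among the 21 genes nor among the 2 lower. Csnk1e, a kinase of Per proteins, was higher by 0.53 ± 0.09 on its brightest probe, with its other 2 probes not called. Several members were not called, namely Per1 (-0.10 ± 0.22), Per3 on its brightest probe (0.17 ± 0.22), Cry2 (0.27 ± 0.12), Nr1d1 (0.44 ± 0.23) and Dbp (0.53 ± 0.25). Another of the 3 probes of Per3 was called higher, by 0.48 ± 0.09 (adjusted p = 0.00115), and the third was not (1.22 ± 0.61). SHR arrays lay with WKY in Cry1 and Per2, which SHRSP exceeded by 1.56 and 1.41 (adjusted p = 4.7e-05 and 0.0023). Bmal1, Clock, Per1, Per3, Cry2, Nr1d1 and Dbp were named after their values were seen, and the hour at which glands were taken is not given in the sources used here.

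The promoters of Ciart, a clock repressor that was higher by 2.02 and was named after its values were seen, and of Per2 are printed because they hold the motifs through which clock factors act. They are the 250 bases before the gene's start in the RefSeq annotation of GRCr8, at chr2:186112247-186112496 and chr9:99496994-99497243, both on the minus strand. Capitals mark the E-box CACGTG in Ciart, which occurs 3 times, and the D-box TTATGTAA in Per2. Of the 10 called clock genes with a promoter in the table, the E-box was found in 3 (Tef, Bhlhe40 and Ciart) and the D-box in 1 (Per2), searched on both strands. Of all 27457 promoters of the same length, 5.79% held the E-box and 0.816% the D-box. A match describes the letters only.
Ciart: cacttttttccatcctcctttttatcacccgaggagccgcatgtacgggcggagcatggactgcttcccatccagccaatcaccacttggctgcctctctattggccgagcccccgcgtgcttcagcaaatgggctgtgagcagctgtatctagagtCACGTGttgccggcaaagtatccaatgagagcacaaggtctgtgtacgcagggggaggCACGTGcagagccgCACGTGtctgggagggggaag
Per2: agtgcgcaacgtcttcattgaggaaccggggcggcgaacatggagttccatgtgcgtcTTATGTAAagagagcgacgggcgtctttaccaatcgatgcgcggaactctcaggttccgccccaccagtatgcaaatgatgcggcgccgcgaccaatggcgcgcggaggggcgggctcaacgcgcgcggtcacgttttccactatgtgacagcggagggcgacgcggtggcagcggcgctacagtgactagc

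Immediate early genes held 6 higher and 4 lower of 33 measured. Maff was higher by 1.91 ± 0.25, Gadd45b by 1.1 ± 0.19 and the phosphatase Dusp5 by 0.87 ± 0.16, while Mafk and Jund were lower by 1.41 ± 0.14 and 0.59 ± 0.08. The best known members of the group were not called, with Fos at -0.85 ± 0.47, Egr1 at 0.13 ± 0.32 and Nr4a1 at -1.70 ± 0.68, all named after their values were seen. Chaperones and genes of the unfolded protein response held 17 higher and 1 lower of 47, with a median of 0.22. Hspb8, a small heat shock protein, stood at -3.28, -3.19 and -2.54 against -5.20, -5.04 and -4.85, higher by 2.03 ± 0.26, and the co-chaperones Dnaja4, Hsph1, Dnaja1 and Dnajb4 were higher by 1.17, 0.86, 0.69 and 0.59. Leaving out 1 array gave 12 to 18 higher chaperones.

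Enzymes of epoxide, eicosanoid and fatty acid oxidation were divided, with 11 higher and 11 lower of 50. Leaving out 1 array gave 5 to 11 higher and 7 to 10 lower. Ephx2, soluble epoxide hydrolase, which inactivates vasodilator epoxides, stood at -5.63, -7.03 and -6.73 against -3.65, -3.82 and -3.43, a 7.12-fold lower level (adjusted p = 1.3e-05). SHR arrays were at -3.41, -2.98 and -2.96 with WKY, and at 6 weeks the label with low Ephx2 was SHR (-4.85) and not SHRSP (-0.10). Pla2g4a, which releases arachidonic acid, was lower by 1.1 ± 0.13. The peroxisomal gene Ehhadh was higher by 2.26 ± 0.26. Lipoprotein lipase (Lpl), Elovl3 and Fasn, which fat tissue expresses strongly, were higher by 2.05 ± 0.35, 2.26 ± 0.25 and 1.1 ± 0.36. They were the 3 called of 20 fat markers, where 26.2% of all genes were called. The 20 markers summed to 124 to 223 in SHRSP and 81.8 to 143 in WKY. Their median difference was 0.73, the largest of the 44 lists, beside 0.09 for all genes. For 10 of the 20 the SHRSP-labelled arrays lay wholly above the WKY arrays, and for 0 wholly below. The groups did not overlap, in either direction, for 48.3% of all genes. The defining fat markers Adipoq and Ucp1 were well above background and not called (0.39 ± 0.38 and 0.48 ± 0.78), and the part of attached fat in these differences was not tested. The fatty acid carrier Cd36 differed by 0.07 ± 0.15 and was not called. Fasn kept its call in only 1 of the 6 fits without 1 array.

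Glutathione and antioxidant genes held 17 higher and 6 lower of 52 measured, but only 6 to 12 higher when 1 array was left out. The transferase Gstt3 stood at 2.60, 2.54 and 2.74 against 1.28, 1.42 and 1.28 and was higher by 1.30 ± 0.11, Gsta1 by 0.45 ± 0.08 and mitochondrial superoxide dismutase (Sod2) by 0.53 ± 0.12. Mgst2 and the haem oxygenase Hmox2 were lower by 0.87 and 0.48, and Gstm1 differed by 0.14 ± 0.12 and was not called. Amino acid and urea cycle enzymes held 12 higher and 4 lower of 34, led by Kynu and Ass1, with Phgdh of serine synthesis higher by 0.66 ± 0.12 and Gatm of creatine synthesis lower by 1.46 ± 0.13. The mitochondrial respiratory chain held 3 higher and 0 lower of 57, and 0 to 6 higher when 1 array was left out. Of its 66 listed genes, those not among the 57 were all ATP synthase genes, with no tested gene under the listed symbol. The share called of the 57 was 5.26%, beside 26.2% of all genes.

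Genes induced by interferon held 4 higher and 11 lower of 48, where 14.8% of all genes were higher and 11.4% lower, with a median of -0.27. Ifi44l stood at -6.0, -6.25 and -6.40 against -3.57, -3.44 and -3.59 and was lower by 2.68 ± 0.13 (adjusted p = 8.1e-09), with SHR low too, at -6.03, -6.19 and -6.27. The chemokine Cxcl10, Oasl and Oasl2 were lower by 1.92 ± 0.31, 1.64 ± 0.21 and 1.54 ± 0.24, and Oasl and Oasl2 were lower than in SHR as well. The number of lower genes ran from 9 to 20 when 1 array was left out, and the list median was 0.04 within slide 1 and -0.52 within slide 4. Antigen presentation held 8 higher and 4 lower of 42, and its share of called members (28.6%) was near that of all genes (26.2%). Among the members with the smallest adjusted p, the class II chains RT1-Db1 and RT1-Da were higher by 1.33 ± 0.19 and 1.15 ± 0.19, the invariant chain Cd74 by 1.15 ± 0.20 and their activator Ciita by 1.19 ± 0.20, while the class I gene RT1-N3 was lower by 1.0 ± 0.14. The RT1 genes are close relatives, and their signals are uncertain for that reason. Macrophage markers, cells that carry class II, held 7 higher and 1 lower of 16 and summed to 32.6 to 36.2 in SHRSP and 21.4 to 25 in WKY. Cd163 was higher by 0.99 ± 0.23 and Mpeg1 lower by 1.03 ± 0.18. The part of macrophage number in these differences was not tested. Markers of T, B and NK lymphocytes held 1 higher, Cd4, of 12, and mast cell and granulocyte markers 1 lower, Hdc, of 14.

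Chemokines, cytokines and their receptors held 11 higher and 4 lower of 49. The chemokine Cxcl14 stood at 4.51, 4.37 and 4.63 against 2.3, 2.54 and 2.60, a 4.06-fold difference (adjusted p = 1.8e-07). The receptors Lifr and Tnfrsf1b were lower by 2.0 ± 0.21 and 1.81 ± 0.23. Of complement, coagulation and plasma protein genes, 10 were higher and 4 lower of 46. Plat, tissue plasminogen activator, stood at 2.26, 2.94 and 3.65 against 0.17, 0.09 and 0.28, a 6.82-fold difference (adjusted p = 3.6e-05), and the SHRSP-labelled arrays differed among themselves by more than 1 on the log2 scale.

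Growth factors and imprinted genes held 16 higher and 4 lower of 49. Tgfb2 was higher by 1.72 ± 0.16, Fgfr3 by 0.80 ± 0.13 and Plagl1, an imprinted regulator of growth, by 0.84 ± 0.14, and Igfbp2 was higher by 0.60 ± 0.10. The call of Tgfb2 rests on 1 of its 2 probes, and the other differed by 0.29 ± 0.33. Cell cycle and replication genes held 6 higher and 1 lower of 57, a share called of 12.3%, below the 26.2% of all genes. They were led by the replication helicase subunit Mcm7, at 1.53, 1.64 and 1.47 against 0.24, 0.13 and -0.01 (adjusted p = 2.7e-08). Ccne1 and Pcna were higher by 0.79 and 0.61. Collagens held 3 higher and 4 lower of 26, and their share called (26.9%) was near that of all genes. The basement membrane chain Col4a2 was higher by 0.88 ± 0.14 and the fibrillar chain Col5a1 lower by 0.73 ± 0.11. Matrix glycoproteins and proteases held 8 higher and 6 lower of 49, and their share called (28.6%) was near that of all genes too. The laminin chain Lama5 was higher by 1.92 ± 0.24 and the proteases Mmp9 and Mmp14 were lower by 2.26 ± 0.21 and 1.07 ± 0.11.

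Of 27 measured genes linked to SHR or SHRSP in earlier work, 7 were higher and 4 lower. Beside Agtrap, Ephx2 and Zbtb16, the mitochondrial nuclease Endog, tied to heart mass in rats, stood at -2.45, -2.17 and -2.37 against -0.51, -0.34 and -0.17, lower by 1.99 ± 0.13, and the SHR arrays lay 1.94 below WKY. Over the 44 lists, 40 had a median above 0, as had all genes.

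**Figure D5:**
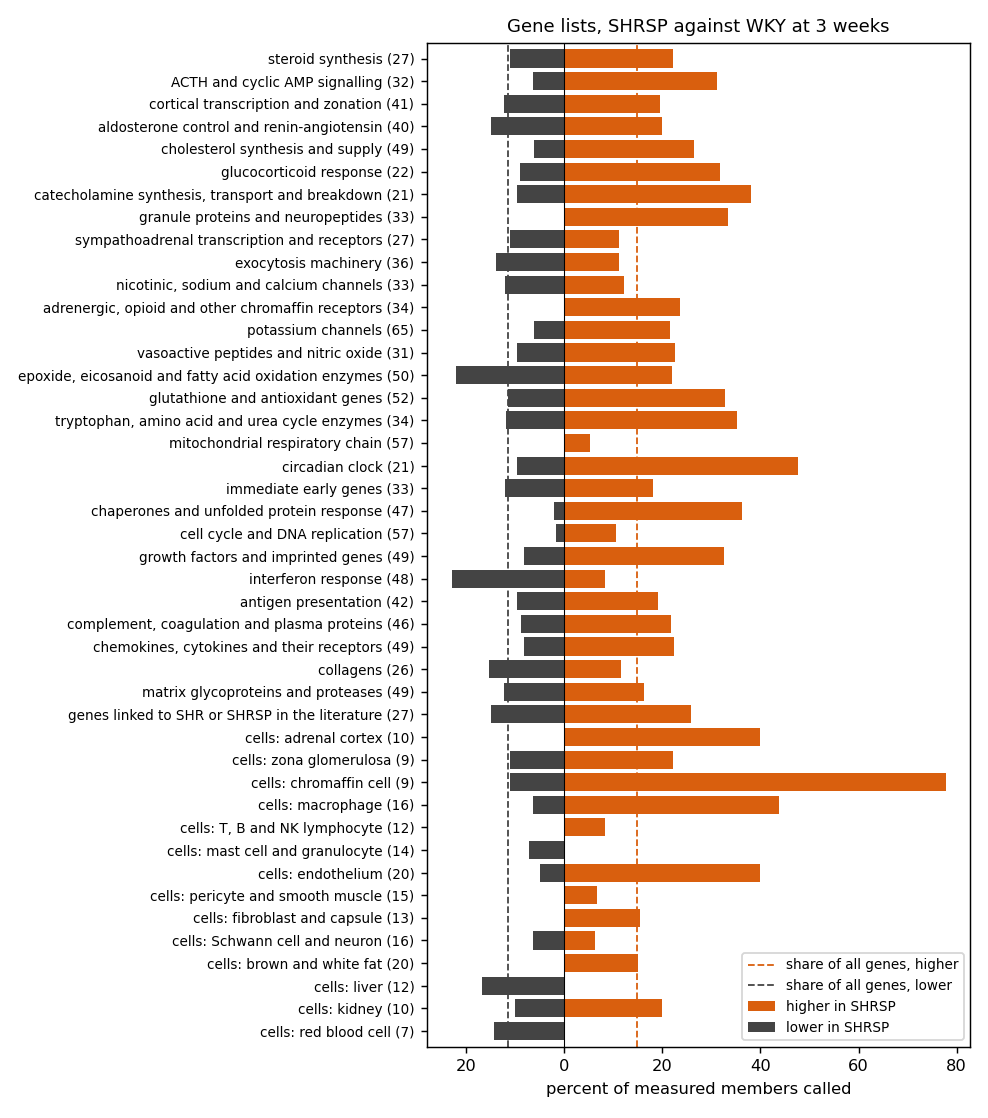
Percentage of measured members of each of the 44 gene lists that were called higher (orange, right) or lower (grey, left) on the SHRSP-labelled arrays than on the WKY arrays at 3 weeks, with the number measured in brackets. Dashed lines mark the shares of all genes, 14.8% higher and 11.4% lower, and chromaffin cell markers, clock genes and macrophage markers reach furthest to the right.

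Against SHR at 3 weeks, 1650 genes (7.93%) differed on the SHRSP-labelled arrays, 983 higher (4.73%) and 667 lower (3.21%), and 277 (1.33%) were at least 2-fold apart. This comparison shares the SHRSP-labelled arrays with the one against WKY, and it is subject to the conflict of labels described above. The genes furthest from both other strains in the same direction were Serpinc1, Hba-a3, Agtrap, Ryr1 and Akr1d1 on the lower side and Zfp597, Irf4, Stard4, Zfp296 and Abca9 on the higher side. The zinc finger gene Zfp597 stood at -1.98, -1.99 and -1.89, against -4.90, -4.93 and -4.81 in WKY and -4.95, -5.11 and -5.13 in SHR. Its difference from SHR was 3.12 (adjusted p = 6.6e-12). Zfp296 stood 2.23 above WKY and 2.34 above SHR. Irf4, a lymphoid transcription factor, and the transporter Abca9 were above background on the SHRSP-labelled arrays only, at least 2.19-fold and 1.71-fold above WKY. Akr1d1 lost its difference from SHR in 2 of the fits without 1 SHRSP array (adjusted p = 0.059 and 0.065), and Abca9 in 4 of those without 1 array (adjusted p = 0.057 to 0.063).

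Some of these genes share a chromosome. Zfp597, Haghl (named after its values were seen) and Hba-a3 lie on chromosome 10 of rn4, with probes that start at 11926184, 15051356 and 15559461, and Agtrap and Uts2 on chromosome 5 at 165154364 and 168148638. By chromosome, the share of tested genes that was called ran from 21.9% of 790 on X to 29.4% of 578 on chromosome 16.

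Differences from WKY at 3 weeks were set against those at 6 weeks, which rest on other arrays. Of the 3073 genes higher at 3 weeks, 1161 were called higher and 135 lower at 6 weeks under the SHRSP label, and 1713 higher and 26 lower under the SHR label. Of the 2380 lower genes, 1205 were called lower and 56 higher under the SHRSP label, and 1499 lower and 21 higher under the SHR label. At 6 weeks, 4979 genes (23.9%) were called between SHRSP and WKY, with 11.1% of all genes higher and 12.8% lower, and 6072 (29.2%) between SHR and WKY, with 16.2% higher and 13% lower. Between SHR and WKY at 3 weeks, a comparison that shares the WKY arrays, 3797 (18.3%) were called. The difference between ages itself was called for 2095 genes (10.1%) under the SHRSP label, 775 (3.73%) with a more positive and 1320 (6.35%) with a more negative difference at 6 weeks. When the arrays labelled SHR were put in the place of those labelled SHRSP at 6 weeks, an alternative added after the values were seen, 417 genes (2.01%) were called.

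Under both labels at 6 weeks, the difference of Noct, a rhythmic deadenylase, and of the sulfotransferase Sult1e1 from WKY was of another size. Noct stood at -0.56, -0.56 and -0.21 against -3.38, -3.59 and -3.06 at 3 weeks, 2.90 ± 0.30 higher, and at 6 weeks it lay 1.22 below WKY under the SHRSP label and 0.04 below under the SHR label, the latter not called. Sult1e1 lay 1.14 below WKY at 6 weeks under either label, which was not called. The bile acid binding protein Fabp6 was 0.88 ± 0.22 higher at 3 weeks and 3.09 and 2.17 lower at 6 weeks. By contrast Star, Scarb1, Th, Pnmt and Nr0b1 kept their direction at 6 weeks under both labels, with Star 0.57 and 0.79 above WKY, Scarb1 1.18 and 1.1, Th 0.95 and 0.86, Pnmt 1.02 and 0.96, and Nr0b1 2.62 and 2.47 below. Of these 5, Star alone had a called difference between the ages, and under the SHRSP label only, where it was 0.41 smaller at 6 weeks (adjusted p = 0.042).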

How the data were processed

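RNA from adrenal glands was measured on 18 one-colour Agilent rat arrays, 3 for each of 6 groups of strain and age. The authors deposited 1 scanner file per array, whose spot intensity was extracted with Agilent Feature Extraction 10.5.1.1, per the file headers, with detrending within the array, no local background correction and no normalization between arrays. The deposited table of the series held the same intensity values. Probe positions are on rn4, per the file headers.

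From the processed signal of non-control spots without outlier flags, log2 values minus the 75th percentile of each array were computed, and spots of a probe were averaged. A gene was read by its brightest probe. Of 30367 probes, 17671 were named through their accession, 2517 by a current symbol and 697 by a synonym, and 9482 keep the deposited name. Genes well above background on every array of at least 1 of the 6 groups were tested, 20797 in all, of which 180 lacked a value on at least 1 array. limma 3.58.1 in R 4.3.3 fitted 6 group means over the 18 arrays, with 12 residual degrees of freedom, and p-values were adjusted by Benjamini-Hochberg over all genes tested, with calls at 0.05. The code was tested on simulated data. A bound ("at least") sets the mean of the higher group against the lowest signal well above background on each array of the lower group, or the probe's own signal where that was higher. Only 3 arrays a group limit the precision.

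Named genes, unless said to be named after their values were seen, were, among genes with a symbol and no overlap between the groups, the 12 largest called changes each way, the 8 largest each way with 1 group at background, the 5 lowest adjusted p-values in every list, known adrenal and strain genes, and the 5 largest each way between ages and against both other strains. Some genes so chosen are not reported here. The members and lists were chosen with earlier results of these data known. A member was counted as measured only under the symbol in its list, so genes tested under another symbol are left out. Alternatives changed the background correction, scaling, filter, probe rule, blocks and arrays used.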

Additional observations from a re-analysis of the deposited data

Results flagged for a closer look

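Of 62 named genes considered here, 25 had a difference between SHRSP and WKY labels that differed between 3 and 6 weeks, by a test in limma. Over all genes the share was 10.1%. Some of the 62 were named because of this very difference, so the 2 shares cannot be compared. Genes named after their values were seen are left out, although some were called too, among them Vegfb (-10.37), Bmal1 (-2.02) and Haghl (3.01). The values below are the difference at 6 weeks minus that at 3 weeks, on the log2 scale. They rest on labels that conflict between the ages, so the value with the arrays labelled SHR at 6 weeks in place of SHRSP, added after the data were seen, is given as well.

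The difference was more positive at 6 weeks for Serpinc1 (8.99), Hba-a3 (7.21), Uts2 (5.67), Agtrap (5.54), Ryr1 (4.84), Ephx2 (2.73), Gfra1 (1.79), Lypd6b (1.65), Gsta3l1 (1.64) and Ddc (0.50). It was more negative for Zbtb16 (-4.64), Sult1e1 (-4.47), Sbk2 (-4.13), Noct (-4.12), Fabp6 (-3.97), Sfrp4 (-3.37), Irf4 (-3.16), Svs5 (-3.14), Stard4 (-3.08), Crem (-2.65), Abca9 (-2.65), Zfp597 (-2.64), Zfp296 (-2.01), Cd36 (-1.31) and Star (-0.41).

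With the SHR label at 6 weeks, the value was 0.20 for Agtrap, 0.78 for Hba-a3, -0.64 for Serpinc1, -0.22 for Stard4, 0.07 for Zfp597 and -0.02 for Zfp296, and none of these 6 was called. It was still called for Sult1e1 (-4.47), Sfrp4 (-3.39), Fabp6 (-3.05), Noct (-2.94), Ryr1 (2.79), Gfra1 (2.53) and Cd36 (-1.63), and for Ephx2 with the opposite sign (-2.02). It was not called for the other 11 genes.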

How the results depend on the processing

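The count of 5453 genes between SHRSP and WKY at 3 weeks stayed within 1.5 times under all 18 alternatives, from 3760 without SHRSP replicate 3 to 6457 with scan day as a block. Leaving out 1 array gave 3760 to 5164 genes, with 2107 to 2971 higher, 1653 to 2193 lower and 880 to 1249 at least 2-fold. With normexp background correction, the genes at least 2-fold apart fell from 1117 to 570. Slide as a block gave 6436 genes, and a fit of only the 6 arrays gave 6397. The replicate number as a block gave 5662 (3207 higher and 2455 lower), but same-numbered arrays deviated together with correlations of only 0.07, -0.28 and 0.10, so the numbers do not pair the samples. Against SHR at 3 weeks, where the main count was 1650, leaving out 1 array gave 890 (without SHR replicate 2) to 1363 genes, with 495 to 808 higher, 387 to 555 lower and 228 to 320 at least 2-fold. It was 956 without SHRSP replicate 2 and 1043 without SHRSP replicate 3. Scan day as a block gave 2526 (1527 higher), and normexp 142 at least 2-fold. Between the ages, where it was 2095, leaving out 1 array gave 1301 (without WKY replicate 2 at 3 weeks) to 2112, with 487 to 784 more positive, 814 to 1328 more negative and 610 to 904 at least 2-fold. Scan day as a block gave 3179 (2036 more negative), normexp 459 at least 2-fold, and the SHR label at 6 weeks, added after the data were seen, 417 (135 more positive, 282 more negative, 211 at least 2-fold), which reversed Serpinc1 (-0.64). Over the 243 named genes, between 223 (without SHRSP replicate 3) and 243 (series table) kept their direction and side of the threshold, leaving aside the stricter background filter, under which 200 remained tested. Signs turned for Csnk1e (-0.12) and Kcnk2 (-0.80) with the median over probes, Cyp21a1 (0.00) after quantile normalization, and Nr5a1 with slide as a block (0.042), none of these called. Leaving out 1 array also turned signs, with ranges of -0.48 to 0.011 for Gata1, -0.043 to 0.88 for Klf1 and -0.16 to 0.045 for Nr5a1. The cause was not tested. Probes near background limit the size of the largest differences.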

Other observations

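Single arrays stood apart in groups of genes. The transthyretin gene Ttr, abundant in liver and named after its values were seen, stood at -5.25, -0.40 and -5.98 on the SHRSP-labelled arrays and at -6.57, 5.04 and -0.38 on the SHR arrays at 3 weeks. The neurofilament genes Nefl and Nefm stood at -1.94 and -0.45 on SHR replicate 3 and at or below -3.59 on the other 2 SHR arrays, and neither was called between SHRSP and WKY. Another neurofilament gene, Nefh, was higher on the SHRSP-labelled arrays by 1.53 ± 0.14 (SE, 3 arrays against 3, adjusted p = 5.1e-06), at -2.27, -2.25 and -2.27 against -3.82, -3.88 and -3.69. The SHR arrays, at -2.34, -2.60 and -2.23, were near SHRSP. Of 16 measured markers of Schwann cells and neurons, Nefh was the 1 called higher. Tubb3, a neuronal tubulin, was the 1 called lower, by 1.21 ± 0.34. The median of these markers was -0.29, and their share called was 12.5%, beside 26.2% of all genes.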
